A study of Mus musculus with 2 samples.

Results

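Organic ion and ABC transporter genes were described in hepatocellular carcinoma tissue of mice. They comprise the solute carrier families Slco, Slc22a and Slc10a, which are mostly uptake transporters, and the ATP-binding cassette families Abca, Abcb, Abcc and Abcg, which are mostly exporters. Members were all genes whose symbol begins with one of these family names followed by a digit, in probe sets that name exactly 1 gene, and a gene's value was that of its brightest probe set. This gave 85 of the 19938 genes on the array, 44 in the uptake families and 41 in the export families. The tumours came from HLF-deficient mice, deficient in hepatic leukemia factor (HLF), a PAR bZIP transcription factor, and from WT mice. Both groups had been given DEN (diethylnitrosamine, a liver carcinogen), so neither array shows untreated or normal liver. Bulk carcinoma tissue was measured, so all its cell types contribute. The labels name no allele, strain, sex, age or time after DEN, and do not say whether tissue of several mice was pooled. Each genotype was measured on 1 array. No p-value or spread between tumours can be had, and every difference below is one between 2 tumour samples.

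Hepatocytes take up bile salts, hormones, drugs and other organic ions from sinusoidal blood through Slc10a1, Slco and Slc22a carriers of the basolateral membrane. They secrete bile salts, phospholipid, sterols and conjugates into bile through ABC transporters of the canalicular membrane, and other ABC proteins return conjugates to blood or work in mitochondria and lysosomes. HLF and its relatives bind the D-box, a palindromic DNA motif, and are known in liver as regulators of genes of drug metabolism.

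Levels are the authors' RMA values in log2 units, and each difference is the HLF-deficient level less the WT level. Expression was called from a floor of 2.98, below which lay 95% of values of the chemoreceptor genes (olfactory, vomeronasal and taste receptors). These genes were taken as silent in liver, which was not tested. The floor was taken over both arrays together. On each array alone it would be 2.87 (HLF-deficient) and 3.12 (WT), so background reached less high on the HLF-deficient array. Of the 85 members, 60 were at or above the floor on both arrays, 2 on the WT array only and 23 on neither. Among all genes, 14575 were at or above it on at least 1 array. Between the 2 brightest probe sets of a gene, the difference of a single probe set had an SD of 0.24 over 739 genes, which covers technical spread within these arrays and no spread between mice. Hlf itself had a level of 3.79 in the HLF-deficient and 5.13 in the WT tumour, a difference of -1.34, and the labels do not say which exons the deficiency affects. The hepatocyte markers Alb, Ttr, Apoa1, Serpina1c, Tat, Cps1 and Hnf4a were all above the floor on both arrays, with differences from -0.15 to 0.32.

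Few transporter genes differed by a large factor. In the HLF-deficient tumour, Abcc9 and Abca8a were higher and Slc22a26 was lower by 2-fold or more, 3 of the 62 members at or above the floor, or 4.84%. Among all 14575 genes the share beyond 2-fold was 1.86%, with 1.5% higher and 0.364% lower. Beyond 1.5-fold lay 9 members, or 14.5%, against 9.49% of all genes. The 5 higher ones were Abcc9, Abca8a, Slc22a5, Abca5 and Abca8b, and the 4 lower ones were Slc22a26, Slc22a27, Slc22a7 and Slco1a4. Of all genes, 6.37% were higher and 3.11% lower by 1.5-fold. The split of the members depended on the scaling: it was 9 higher and 2 lower with each array centred on its median, and 3 higher and 5 lower after quantile normalization or after removal of a loess trend.

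Uptake genes were more often lower than the typical gene, and export genes lay near it. Of the 29 uptake members at or above the floor, 19 were lower in the HLF-deficient tumour, with a median difference of -0.24 over all 29. The share with a positive difference was 34.5%, against 58.2% of all 14575 genes. Of the 33 export members, 21 were higher (63.6%, near the share of all genes), with a median of 0.13, against 0.07 for all genes. Each of the 3 uptake families had a negative median, -0.15 for Slco, -0.29 for Slc22a and -0.24 for Slc10a. Each of the 4 export families had a positive one, 0.19 for Abca, 0.13 for Abcb, 0.02 for Abcc and 0.30 for Abcg, of which that of Abcc lay below the median of all genes. No family median turned sign with the arrays centred, after quantile normalization or after loess. By 1.5-fold as deposited, 1 uptake member was higher (3.45%) and 4 were lower (13.8%). Of the export members, 4 were higher (12.1%) and 0 were lower. Of all genes, 6.37% were higher and 3.11% lower. These splits depended on the scaling. With the arrays centred, Slc22a23, Slco3a1 and Slco1b2 also passed upward, at 0.71, 0.67 and 0.61, while Slc22a7 and Slco1a4 no longer passed downward. After quantile normalization or loess, Abca5 and Abca8b no longer passed. The export median was 0.12 after quantile normalization or loess, 0.26 with the arrays centred and 0.0033 with no floor. The uptake median was between -0.27 and -0.12 under all 8 alternatives. Centring adds 0.12 to every difference, and relative to the median of all genes it leaves the uptake families at -0.32 and the export families at 0.06.

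The difference also varied with level across the whole array, and more of the uptake than of the export genes were dim. With a division at a mean level of 5, chosen after the values were seen, the 7220 dimmer genes at or above the floor had a median of -0.10 and the 7355 brighter genes one of 0.20. Among dimmer members the median was -0.27 for 16 uptake and -0.02 for 13 export genes. Among brighter members it was -0.15 for 13 uptake and 0.33 for 20 export genes. Within both ranges the uptake median lay below that of all genes of the range and the export median above it. Background also differed, with a floor of 2.87 on the HLF-deficient and 3.12 on the WT array alone. The part of this offset in the differences of dim uptake genes was not tested.

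**Figure D1:**
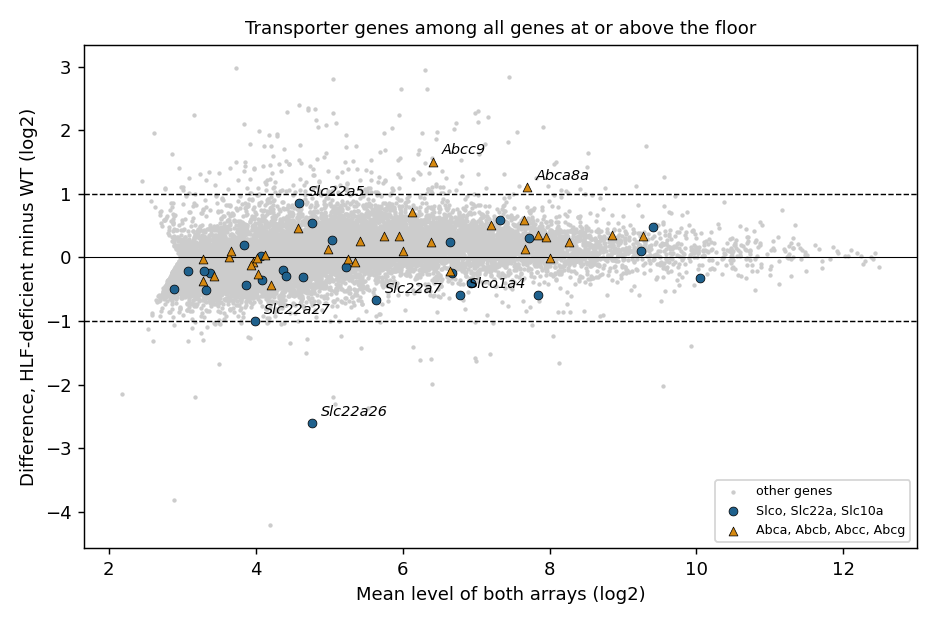
Difference between tumours (HLF-deficient minus WT, log2) against the mean level of both arrays (log2) for the 14575 genes at or above the floor. Circles are Slco, Slc22a and Slc10a genes, triangles are Abca, Abcb, Abcc and Abcg genes, dots are other genes, and dashed lines mark 2-fold. Slc22a26 stands alone among the members at -2.61, and Abcc9 and Abca8a lie above the upper line.

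The largest difference of any member was that of Slc22a26, a gene of the organic anion transporter family. Its level was 3.46 in the HLF-deficient tumour, just above the floor, against 6.06 in the WT tumour. The difference of -2.61, or 6.09-fold lower, was the 3rd lowest of the 14575 genes, and it stayed between -2.63 and -2.48 under the 8 alternatives. Slc22a27, the next member along chromosome 19, had levels of 3.49 in the HLF-deficient and 4.49 in the WT tumour. Its difference of -0.998 came marginally short of 2-fold, at rank 54 among the decreases, and was -0.88 with the arrays centred.

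Both genes belong to a run of 7 members that follow each other in the gene order of the RefSeq annotation (GRCm38.p6), with no other gene of the array's annotated single-gene probe sets between them. In order, these are Slc22a19, Slc22a26, Slc22a27, Slc22a29, Slc22a30, Slc22a8 and Slc22a6. Slc22a29 had levels of 3.66 in the HLF-deficient and 4.09 in the WT tumour, a difference of -0.43. Slc22a30 had levels of 7.56 in the HLF-deficient and 8.14 in the WT tumour, a difference of -0.58, just inside 1.5-fold, or -0.73 after quantile normalization. All 4 genes from Slc22a26 to Slc22a30 were thus lower in the HLF-deficient tumour, and each kept that sign under all 3 other scalings (centring, quantile normalization and loess). Of the other 3 genes of the run, Slc22a6, which encodes the renal organic anion transporter OAT1, differed by -0.24, and Slc22a19 and the OAT3 gene Slc22a8 were below the floor on both arrays. The nearest measured genes beyond Slc22a19 were Plaat5, Lgals12 and Plaat3, at -0.32, -0.60 and 0.27, of which the first 2 lay near or below the floor. A probe set that names Slc22a28, Slc22a30 and Slc22a29 together, and so is no member, had levels of 7.54 in the HLF-deficient and 8.08 in the WT tumour, a difference of -0.54. Slc22a genes of this run resemble each other, so signal of a neighbour in a probe set cannot be set aside.

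**Figure D2:**
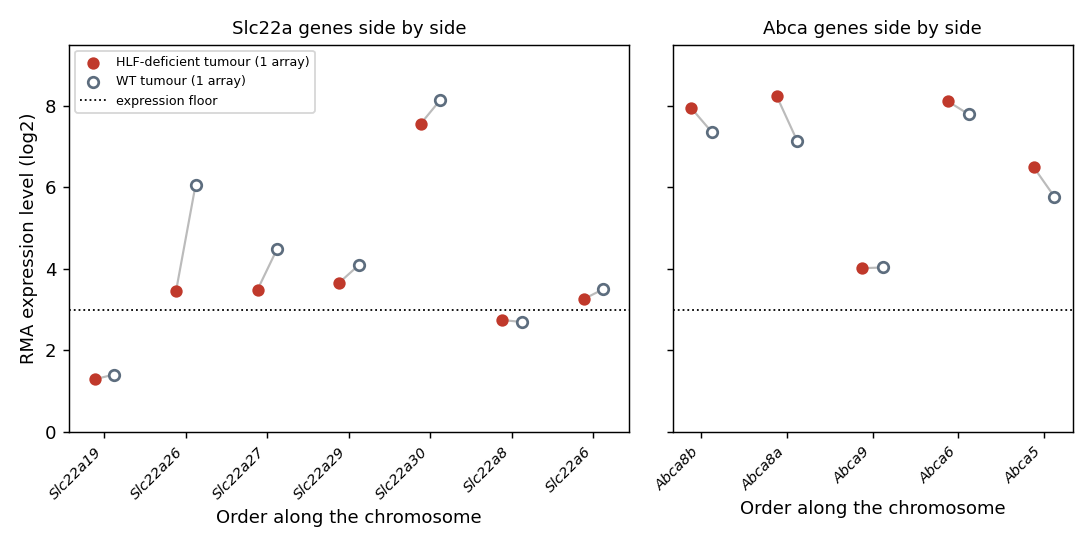
Level (log2) in the HLF-deficient tumour (filled) and the WT tumour (open) of 2 runs of neighbouring members, in the gene order of the annotation, with the floor as a dotted line. Slc22a26 to Slc22a30 are all lower in the HLF-deficient tumour, and 4 of the 5 Abca genes are higher in it as deposited.

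Promoters were searched because HLF is known as a D-box binding factor. Those of Slc22a26 and Slc22a27 are shown as lower genes, and that of Slc22a20 because it held the motif. The motif was searched as TTACGTAA and TTATGTAA on both strands, where the second reads TTACATAA from the other strand, in RefSeq windows of 300 bases (250 before and 50 after an annotated gene start, GRCm38.p6). No other motif was searched. Windows were found for 71 of the 85 members, and 2 of them, Slc22a26 and Slc22a20, held the motif. That is 2.82% of the members with a window, against 1.23% of the 27025 genes in the promoter table. Capitals mark the motif, which begins 8 bases after the annotated start of Slc22a26 and 43 bases before that of Slc22a20. Each window is given 5′ to 3′ on the minus strand, that of Slc22a26 at chr19:7802618-7802917, that of Slc22a27 at chr19:7965978-7966277 and that of Slc22a20 at chr19:5986094-5986393.
Slc22a26: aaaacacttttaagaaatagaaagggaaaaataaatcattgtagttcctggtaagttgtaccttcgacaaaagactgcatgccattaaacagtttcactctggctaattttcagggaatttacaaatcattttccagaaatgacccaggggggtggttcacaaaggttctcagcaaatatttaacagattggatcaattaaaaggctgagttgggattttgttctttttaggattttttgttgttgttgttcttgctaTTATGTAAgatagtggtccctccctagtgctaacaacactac
Slc22a27: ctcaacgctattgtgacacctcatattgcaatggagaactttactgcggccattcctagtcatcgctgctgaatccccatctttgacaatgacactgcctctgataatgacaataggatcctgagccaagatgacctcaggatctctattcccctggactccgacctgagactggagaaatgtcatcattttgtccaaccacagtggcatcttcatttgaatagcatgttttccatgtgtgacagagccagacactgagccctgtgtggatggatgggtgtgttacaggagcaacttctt
Slc22a20: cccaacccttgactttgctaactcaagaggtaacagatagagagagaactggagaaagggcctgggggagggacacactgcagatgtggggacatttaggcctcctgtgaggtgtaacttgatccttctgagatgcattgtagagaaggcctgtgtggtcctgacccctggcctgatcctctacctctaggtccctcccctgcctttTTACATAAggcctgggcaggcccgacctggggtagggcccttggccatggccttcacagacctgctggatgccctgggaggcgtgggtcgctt

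Slc22a20, an organic anion carrier gene elsewhere on chromosome 19, had levels of 3.06 in the HLF-deficient and 3.58 in the WT tumour, a difference of -0.51 close to the floor. The windows of Slc22a27, Slc22a29 and Slc22a30 held no D-box of these letters. Of the 6 pairs among the windows of Slc22a26, Slc22a27, Slc22a29 and Slc22a30, 1 pair aligned over at least 200 bases. It was Slc22a29 and Slc22a30, which were identical at 210 of 257 aligned bases (81.7%). A match of letters is a description of the window and not a measured binding site.

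The carriers of the hepatocyte basolateral membrane split in both directions. Of 8 listed genes, 7 were analysed, all above the floor on both arrays. Of these 7, 0 passed 2-fold and 3 passed 1.5-fold, 1 higher and 2 lower. Among all genes, 9.49% passed 1.5-fold in either direction. The median difference of the 7 was -0.15, and between -0.27 and -0.03 under the alternatives. Slc10a1, the sodium-dependent bile salt carrier NTCP, had levels of 9.88 in the HLF-deficient and 10.21 in the WT tumour, a difference of -0.33. Slco1b2, which takes up bilirubin, statins and bile acids, was at 9.65 in the HLF-deficient and 9.16 in the WT tumour, a difference of 0.49. Slco1a1, a broad organic anion carrier more abundant in male than female mouse liver, was nearly level at 9.30 in the HLF-deficient and 9.20 in the WT tumour. Its small difference of 0.11 turned to -0.01 after quantile normalization.

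Slco1a4, a relative of Slco1a1 that is more abundant in female mouse liver, was lower, with levels of 6.49 in the HLF-deficient and 7.08 in the WT tumour and a difference of -0.59. It is the neighbour of Slco1a1 and Slco1b2 on chromosome 6, so this run of Slco genes held differences of both signs. Slc22a7, the organic anion transporter OAT2, was at 5.30 in the HLF-deficient and 5.97 in the WT tumour, a difference of -0.67. Slco2b1 was at 5.15 in the HLF-deficient and 5.30 in the WT tumour. Its difference of -0.15 was smaller than the technical SD of 0.24.

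Slc22a5 encodes OCTN2, the sodium-dependent carnitine carrier needed for fatty acid oxidation. It was the uptake gene with the largest positive difference, 0.86, from levels of 5.02 in the HLF-deficient and 4.16 in the WT tumour. It remained between 0.86 and 0.98 under the alternatives, so it passed 1.5-fold and not 2-fold in each. Its nearest measured neighbours on chromosome 11 did not share a difference of this size. Slc22a4, an ergothioneine carrier, had levels of 3.92 in the HLF-deficient and 4.27 in the WT tumour. Slc22a21 was below the floor on both arrays, so its difference was not read. Beyond Slc22a4, Pdlim4 differed by -0.15 and P4ha2 by 0.71. On the other side of Slc22a5, Irf1, Rad50 and Il13 differed by 0.25, 0.08 and -0.31.

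Of the 24 uptake members within 1.5-fold, differences ran from -0.58 to 0.58. The upper end was Slc22a23, an orphan carrier, at 7.62 in the HLF-deficient and 7.04 in the WT tumour, and next below it was Slco3a1, at 5.05 in the HLF-deficient and 4.50 in the WT tumour. Slco2a1, the prostaglandin transporter, was at 6.72 in the HLF-deficient and 7.13 in the WT tumour, a difference of -0.41. Slc10a2, the bile salt carrier known from ileum and bile ducts, was at 7.87 in the HLF-deficient and 7.56 in the WT tumour, a difference of 0.31. Slc10a5 and Slc10a7, orphan relatives of NTCP, differed by -0.24 and 0.27. Slc22a18, an imprinted gene, differed by 0.24, and Slc22a12, which encodes the urate carrier URAT1 of kidney, by -0.30. Slc10a4 had levels of 2.65 in the HLF-deficient tumour, under the floor, and of 3.13 in the WT tumour. Slc22a16 was at 2.978 in the HLF-deficient tumour, marginally under the floor of 2.979, and at 3.19 in the WT tumour. By the floor of the HLF-deficient array alone, 2.87, Slc22a16 would be above it on both arrays. These members beyond the basolateral list were named after their values were seen.

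**Figure D3:**
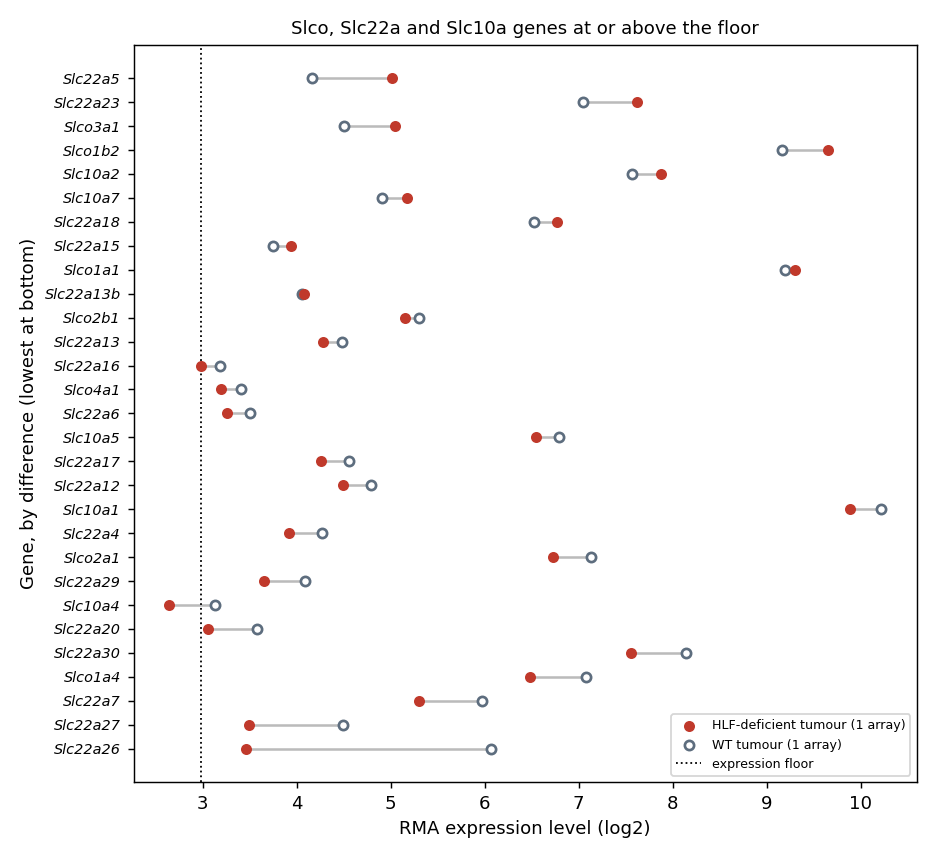
Levels (log2) of the 29 Slco, Slc22a and Slc10a genes at or above the floor (dotted line) on at least 1 array, in the HLF-deficient tumour (filled) and the WT tumour (open), ordered by difference. Of these genes, 10 have the filled point to the right and 19 to the left, and Slc22a26 has the longest line.

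Most canalicular exporters had small positive differences of similar size. Of 8 listed genes, 7 were at or above the floor, and 6 of these had differences between 0.33 and 0.50. The median was 0.34, against 0.07 for all genes and 0.20 for the brighter genes. Loess gave 0.20, quantile normalization 0.21 and centring 0.46, and 0 of the 7 passed 1.5-fold as deposited. All 7 were among the genes of mean level 5 or more, of which 78.4% had a positive difference, so 6 of 7 positive (85.7%) is near that share. No test can be given for the list, and genes of 1 array pair share that pair's scaling.

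Abcb11, the bile salt export pump, had levels of 9.03 in the HLF-deficient and 8.68 in the WT tumour, a difference of 0.35. Abcc2, the exporter of bilirubin glucuronide and other conjugates, was at 9.45 in the HLF-deficient and 9.11 in the WT tumour, a difference of 0.34. Abcg5 and Abcg8 encode the subunits of 1 sterol exporter and are head-to-head neighbours on chromosome 17. Abcg5 was at 8.02 in the HLF-deficient and 7.67 in the WT tumour, and Abcg8 at 7.46 in the HLF-deficient and 6.95 in the WT tumour. Their differences of 0.35 and 0.50 stayed positive under every alternative, and that of Abcg8 passed 1.5-fold with the arrays centred, at 0.63.

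Abcg2, an exporter of urate, porphyrins and drugs, was at 6.12 in the HLF-deficient and 5.79 in the WT tumour, a difference of 0.33. Abcb1a, a P-glycoprotein that exports drugs, was at 5.91 in the HLF-deficient and 5.57 in the WT tumour, a difference of 0.34, while its relative Abcb1b did not reach the floor in the HLF-deficient tumour (2.65) or the WT tumour (2.70). Abcb4, which moves phosphatidylcholine into bile, was level at 7.99 in the HLF-deficient and 8.01 in the WT tumour, and its difference of -0.02 turned to 0.11 with the arrays centred. Its neighbour in the gene order is Abcb1b, and Abcb1a follows. With Abcb1b below the floor, only Abcb1a and Abcb4 could be compared, at 0.34 and -0.02. Carriers of bile salts held both signs on either side: among uptake genes Slc10a1 differed by -0.33 and Slco1b2 by 0.49, and among exporters Abcb11 differed by 0.35 and Abcc3 by -0.22.

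Exporters of the basolateral list lay close to the typical gene, with a median of 0.09 over 7 genes and 0 beyond 1.5-fold. Abcc3, which returns glucuronides and bile salts to blood, was at 6.53 in the HLF-deficient and 6.75 in the WT tumour, a difference of -0.22 that kept its sign under the alternatives. Abcc4 was at 4.15 in the HLF-deficient and 4.11 in the WT tumour, and Abcc1 at 3.65 in the HLF-deficient and 3.64 in the WT tumour, so both conjugate exporters were level as deposited. Abcc5, which exports cyclic nucleotides, was at 4.81 in the HLF-deficient and 4.34 in the WT tumour, a difference of 0.46. Abcc6, whose loss causes ectopic calcification, was at 6.05 in the HLF-deficient and 5.96 in the WT tumour, and its difference of 0.09 turned to -0.10 after quantile normalization and -0.06 after loess. The cholesterol exporters Abca1 and Abcg1 differed by 0.24 and 0.27. Abca1 was at 8.39 in the HLF-deficient and 8.15 in the WT tumour, and Abcg1 at 5.56 in the HLF-deficient and 5.29 in the WT tumour.

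**Figure D4:**
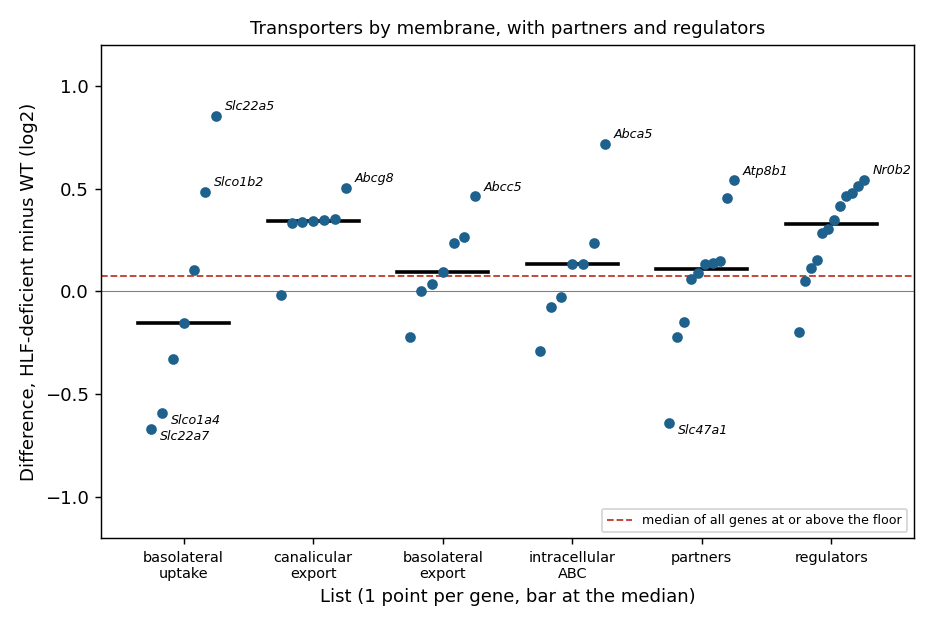
Difference between tumours (HLF-deficient minus WT, log2) of each gene at or above the floor in 6 lists, with a bar at each list's median and a dashed line at the median of all genes, 0.07. Basolateral uptake spreads from -0.67 to 0.86, while 6 of 7 canalicular exporters lie between 0.33 and 0.50.

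The export member with the largest difference does not export substrates. Abcc9 encodes SUR2, the regulatory subunit of ATP-sensitive potassium channels in vascular and other muscle. It had levels of 7.16 in the HLF-deficient and 5.66 in the WT tumour, a difference of 1.51, or 2.84-fold higher, at rank 68 among the increases. Under the alternatives it stayed between 1.33 and 1.63. Kcnj8, its neighbour on chromosome 6, encodes Kir6.1, the pore subunit that assembles with SUR2. It is no member and was named after its value was seen: its levels were 6.59 in the HLF-deficient and 5.28 in the WT tumour, a difference of 1.31. The genes beyond this pair were not raised alike, with Ldhb at -0.18 and Cmas at -0.05. Abcc8, which encodes SUR1, the corresponding subunit of pancreatic beta cells, was at 3.99 in the HLF-deficient and 4.43 in the WT tumour, a difference of -0.44 and the lowest of the 33 export members at or above the floor.

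Of the 6 listed stellate cell genes, 5 had positive differences, with a median of 0.28 and a mean level of 5.68 in the HLF-deficient and 5.30 in the WT tumour. Rgs5 and Pdgfrb, the 2 of them beyond 1.5-fold and both also expressed by pericytes, differed by 0.94 and 0.73, and Lrat by -0.13. All 6 were above the floor on both arrays. Their part in the difference of Abcc9 was not tested. In bulk tissue, a change in the number of cells of a type and a change in RNA per cell cannot be told apart.

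Abca8a was the other exporter beyond 2-fold. It encodes a transporter of the Abca lipid transporter family, and had levels of 8.24 in the HLF-deficient and 7.14 in the WT tumour, a difference of 1.10 or 2.15-fold. It was just under 2-fold, at 0.96 and 0.95, after quantile normalization and loess. It lies in a run of 5 Abca genes on chromosome 11. Abca8b was at 7.95 in the HLF-deficient and 7.36 in the WT tumour, a difference of 0.59, or 0.44 after quantile normalization. Abca5, a lysosomal member, was at 6.49 in the HLF-deficient and 5.77 in the WT tumour, a difference of 0.72. Abca6 was at 8.11 in the HLF-deficient and 7.79 in the WT tumour, a difference of 0.32, and Abca9, in the middle of the run, was level at 4.02 in the HLF-deficient and 4.03 in the WT tumour. The run thus held 3 of the 4 export members beyond 1.5-fold. On the side of Abca8b, the nearest measured genes Fam20a, Prkar1a and Wipi1 differed by 0.09, 0.39 and 0.30. On the side of Abca5, Map2k6 differed by 0.08 and Sox9 by -0.13, and between them Kcnj2, a potassium channel gene, was at 4.29 in the HLF-deficient tumour and under the floor at 2.05 in the WT tumour. Abca8a and Abca8b are close relatives, and a probe set of either may read both.

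Intracellular ABC transporters showed no common direction. Over 7 listed genes the median was 0.13, which quantile normalization turned to -0.012 and loess to -0.015. Abca5, described above, was the only 1 of the 7 beyond 1.5-fold as deposited. Abcb6, of mitochondrial and lysosomal membranes, differed by 0.24. Abcb8 and Abcb10, both of the mitochondrial inner membrane, differed by 0.13 and -0.07. Abcb9, a lysosomal peptide transporter, differed by -0.29, at 3.28 in the HLF-deficient and 3.58 in the WT tumour. Abca3, known from surfactant lipid storage in lung, and Abca2 differed by 0.13 and -0.03. Outside the lists, Abcc10, a relative of the conjugate exporters, was at 3.90 in the HLF-deficient and 4.16 in the WT tumour, and Abcc12 was at 3.10 in the HLF-deficient and 3.47 in the WT tumour. Over all 29 export members within 1.5-fold, differences ran from -0.44 to 0.50.

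**Figure D5:**
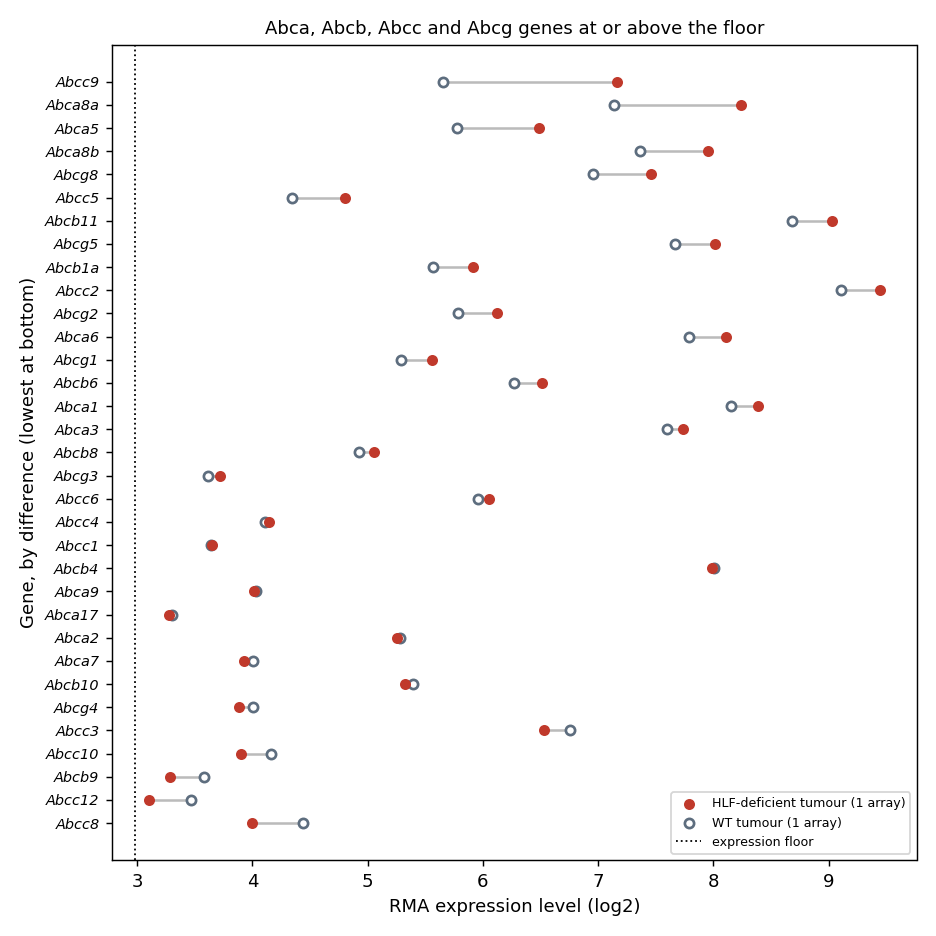
Levels (log2) of the 33 Abca, Abcb, Abcc and Abcg genes at or above the floor (dotted line), in the HLF-deficient tumour (filled) and the WT tumour (open), ordered by difference. Of these genes, 21 have the filled point to the right and 12 to the left, with Abcc9 and Abca8a showing the longest lines.

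The 23 members below the floor on both arrays were 8 Slco, 6 Slc22a, 1 Slc10a, 6 Abca and 2 Abcb genes. They include genes known from other organs, such as Slc22a2, which encodes the renal cation carrier OCT2, and Abca4 of the retina. Their measured differences ran from -0.64 to 0.16 and were not read as changes in expression. Most were negative, and background also reached less high on the HLF-deficient array. The part of background in these differences was not tested. Abcb5 was the only member with 2 probe sets, both below the floor.

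Genes that work with these transporters, listed without being members, stayed within 2-fold. Of 12 partner genes, 10 were at or above the floor, 0 passed 2-fold and 1 passed 1.5-fold, near the 9.49% of all genes. The partner beyond 1.5-fold was Slc47a1, which encodes MATE1, the exporter of organic cations into bile. It was at 6.31 in the HLF-deficient and 6.94 in the WT tumour, a difference of -0.64. Atp8b1, a flippase that protects the canalicular membrane, differed by 0.54, and Slc51b, the beta subunit of the basolateral bile salt exporter, by 0.46, while its partner subunit Slc51a was below the floor. The partner median of 0.11 turned to -0.03 after quantile normalization or loess and was 0.23 with the arrays centred. Of 14 regulators, 12 were in the table and above the floor, and 0 passed 1.5-fold as deposited. Their median was 0.33, or 0.16 after quantile normalization and 0.45 with the arrays centred. Of the 12, 11 were positive as deposited and 9 after quantile normalization or loess. All 12 had a mean level of 5 or more, where 78.4% of all genes were positive as deposited. Nr1h4, the bile acid receptor FXR, differed by 0.15 and its target Nr0b2 by 0.54. Nr1i3, the xenobiotic receptor CAR, was the only negative 1 as deposited, at -0.20. Ahr, Nfe2l2 and Nr5a2, which regulate detoxification and bile acid genes, differed by 0.51, 0.48 and 0.41. Centring adds 0.12 to every difference. It carries the regulators Nr0b2, Ahr and Nfe2l2 and the partner Atp8b1 past 1.5-fold, and Slc47a1 inside it.

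Markers of other cell types, some of which express these transporters, also had differences between the tumours, several of them small or near the floor. Endothelial markers, of which 7 of 7 were above the floor, had a median of 0.81 and mean levels of 6.48 in the HLF-deficient and 5.87 in the WT tumour. Of these, 5 were positive, while Tek and Stab2 were at -0.13 and -0.06. Endothelium also expresses Abcb1a, Abcg2 and Slco2a1. Macrophage markers, 7 of 7 above the floor, had a median of 0.32, with Cd14 and Cd68 at 1.86 and 1.53 and the Kupffer cell genes Clec4f and Vsig4 at -0.37 and -0.36. Macrophages also express Abca1 and Abcg1. Bile duct markers had a median of -0.12 (4 of 6 at or above the floor), neutrophil markers -0.38 (4 of 5), T cell markers -0.21 (3 of 5) and B cell markers -0.10 (2 of 5). The bile duct, T cell and B cell medians were smaller in size than the technical SD of 0.24 of a single probe set. Mean levels of the bile duct, neutrophil, T cell and B cell lists were 3.27 to 3.55 in the HLF-deficient and 3.42 to 3.60 in the WT tumour. These means, unlike the medians, include listed genes below the floor. Some genes behind the medians lay well above it, such as Sox9 (5.04 in the HLF-deficient, 5.17 in the WT tumour) and Jchain (5.57 and 5.45). Of kidney tubule markers 2 of 5 were at or above the floor, with a median of -0.29, and intestinal markers had a median of -0.54 (5 of 5). The part of these cell types in the transporter differences was not tested.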

How the data were processed

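Total RNA of tumour tissue was labelled with biotin with an Affymetrix whole-transcript kit, per the labels' protocols, and 1 array was made per genotype. The deposited log2 values were made by the authors with RMA in Affymetrix Expression Console, per the submitters' processing notes, with no version stated; the scale was inferred from their span, 0.365 to 12.7 (HLF-deficient) and 0.25 to 12.7 (WT). RMA compresses differences near background, and the set of arrays it normalized jointly is not stated in the labels. The medians of the 35556 probe sets were 3.61 (HLF-deficient) and 3.73 (WT). The number of arrays limits the precision.

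Gene names came from GEO's platform annotation: 21789 name 1 gene and were used, 1621 name several and 12146 name none. All 85 members were found by gene identifier in RefSeq (GRCm38.p6) with the same symbol. The floor came from 1248 chemoreceptor probe sets. Genes were called by size alone, at a log2 difference of 1 (2-fold) or 0.585 (1.5-fold) or more, with no test. Alternatives were centring, quantile normalization, loess (span 0.4), averaging the probe sets of each gene, no floor, floors at the 90th and 99th percentile, and low values set to the floor. Members, 6 gene lists and 10 marker lists were chosen with earlier results of these data known. Named genes are Hlf, members beyond 1.5-fold, the membrane lists, and partners and regulators beyond 1.5-fold; others were named after their values were seen. Python 3.11.15, pandas 2.3.3 and statsmodels 0.14.6 were used.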

Additional observations from a re-analysis of the deposited data

How the results depend on the processing

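Over the 8 alternatives, the count of members beyond 2-fold was 3 or 2, against 3 as deposited, and that beyond 1.5-fold lay between 8 and 11, against 9. Abca8a was the member under 2-fold after quantile normalization and loess. The medians of the uptake, export, basolateral uptake, canalicular and basolateral export lists kept their sign under all 8 alternatives. The median of the intracellular ABC transporters, 0.13 as deposited, was -0.012 under quantile normalization and -0.015 under loess, and the cause was not tested. The count of all genes beyond 2-fold lay between 238 and 326, against 271. No partner or regulator passed 2-fold under any of the 8 alternatives. All 9 members beyond 1.5-fold kept their sign, but not all stayed beyond 1.5-fold. Abca5 and Abca8b fell short of it after quantile normalization (0.53 and 0.44) and loess (0.56 and 0.44). Slc22a7 and Slco1a4 fell short with the arrays centred, at -0.55 and -0.47. No paired analysis was possible because each genotype had 1 array and no test was made. Signal near background limits the dim Slc22a genes: the Slc22a26 level in the HLF-deficient tumour lay 0.48 above the floor.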

Other observations

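Of the 38 genes lower by 2-fold in the HLF-deficient tumour that had a promoter window, 3 held the D-box, namely Slc22a26 and the carboxylesterase genes Ces1g and Ces1e. Ces1g was at 6.19 in the HLF-deficient and 7.77 in the WT tumour, and Ces1e at 6.44 in the HLF-deficient and 7.95 in the WT tumour. Among 164 genes higher by 2-fold with a window, 1 held it, Akr1c18, at 9.31 in the HLF-deficient and 8.21 in the WT tumour. Over all 11491 genes at or above the floor with a window the share was 0.931%. These genes were chosen after their values were seen, no test was made, and a window of 300 bases leaves most regulatory sequence unread.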
